A study of Sus scrofa with 4 samples.

Results

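The BCL2 family of apoptosis regulators was examined in RNA from pig epidermal cells sorted by an LGR5 reporter. The 10 genes were chosen by name: the anti-apoptotic genes BCL2, BCL2L1, MCL1 and BCL2L2, the effectors BAX and BAK1, and the BH3-only genes BCL2L11, BID, PMAIP1 and BMF. A row of counts was found for 9 of the 10, out of 29837 named genes, and BCL2L2, without a row of that name, was not analysed here. The pigs were juvenile and carried histone H2B-GFP, knocked into the first exon of LGR5 on a single allele, and descended from clonal fibroblast lines by nuclear transfer. Epidermis and hair freed from the dermis with Dispase were dissociated in trypsin, stained with propidium iodide to mark dead cells, and sorted. RNA of GFP-hi cells (LGR5-high) and of GFP-neg cells (LGR5-negative) was sequenced from each of 2 pigs, 88R and 95R, so that both populations carried the reporter allele and differed in its signal. The GFP is a histone fusion that is diluted with each division, so the gate follows recent as well as present LGR5 expression.

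Proteins of the BCL2 family decide whether the outer mitochondrial membrane is breached during intrinsic apoptosis. BAX and BAK1 form the pore that releases cytochrome c, the anti-apoptotic members bind and restrain them, and the BH3-only proteins are stress-induced ligands that occupy the anti-apoptotic members or switch on the effectors. In skin, the family is known for its part in keratinocyte survival, in the regression of the hair follicle during catagen and in the survival of melanocytes.

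The libraries held between 30696803 and 32463362 counts on named genes, and 3 counts corresponded to between 0.0873 and 0.105 CPM, where CPM is a gene's count relative to the library size after TMM scaling. LGR5 itself had 132 and 188 CPM in LGR5-high, against 1.26 and 3.61 in LGR5-negative in pigs 88R and 95R (log2 fold change 6.03, adjusted p = 2.91e-04 by edgeR), and it is the gene whose reporter set the gates. Among 8 tested markers of differentiated keratinocytes 6 were lower in LGR5-high, KRT10 and KRT1 among them, and among 9 hair follicle stem cell markers 7 were higher. LGR5 is counted among these 7, and the gates set its direction. Of the basal keratinocyte markers 3 of 5 were lower and 0 were higher. KRT5, a basal keratin, averaged 24580 CPM in LGR5-high against 27840 in LGR5-negative (log2 fold change -0.18, adjusted p = 0.265 by edgeR), and KRT14 had no row. Inner root sheath markers were higher in 4 of 5 and lower in 1, proliferation markers higher in 4 of 9 and lower in 0 (7 and 1 with the pig as a replicate block), and endothelial markers higher in 1 and lower in 3 of 5. Fibroblast markers were higher in 1, COL1A1, and lower in 5 of 6. Their summed level was 232 and 449 CPM in LGR5-high of pigs 88R and 95R, against 351 and 228 in LGR5-negative. The sum was thus lower in LGR5-high of pig 88R and higher in that of pig 95R. The lower endothelial genes CDH5 and KDR and the lower fibroblast genes PDGFRA and LUM had at most 5 counts in any LGR5-high library. They passed the filter on low counts only through LGR5-negative. Beside all these marker counts, 22.7% of all tested genes were called higher and 22% lower, and 28.5% and 27.2% with the replicate block. The share called among proliferation markers, 44.4%, was near the 44.7% of all tested genes. The part of any differences in makeup in the results that follow was not tested. In bulk libraries fewer cells of a type and less RNA per cell cannot be told apart.

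Of the 9 BCL2 family genes, BCL2 and BAX were higher in LGR5-high, and MCL1, BCL2L1, BID and BCL2L11 were lower. BAK1, PMAIP1 and BMF did not pass the test. The test was the quasi-likelihood test of edgeR at an adjusted p-value under 0.05, and all 9 members were among the 15980 genes that entered it. The same test called 44.7% of all tested genes, 22.7% as higher and 22% as lower, beside 2 higher and 4 lower members of 9. The median log2 fold change of the members was -0.28, against 0.02 for all tested genes, and their median absolute log2 fold change was 0.58, against 0.47. In 7 of the 9 genes the CPM values of the populations did not overlap, as in 76.6% of all tested genes.

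**Figure D1:**
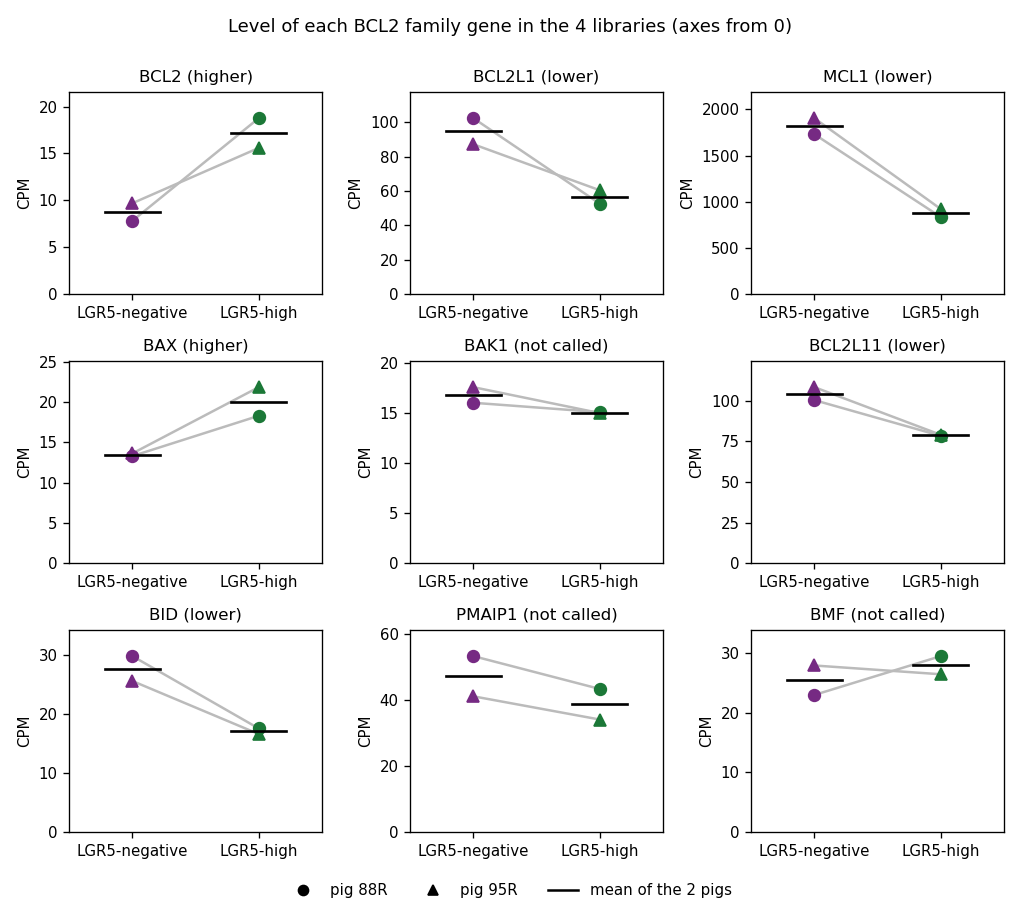
CPM after TMM scaling of each BCL2 family gene in the 4 libraries, with circles for pig 88R, triangles for pig 95R, grey lines joining the populations of 1 pig and black bars for the mean of the 2 pigs. All 9 axes start at 0; the populations overlap for PMAIP1 and BMF and do not for the other 7 genes.

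The anti-apoptotic members did not move together. BCL2, the founding member of the family, had 18.8 CPM in LGR5-high of pig 88R and 15.6 in pig 95R, and 7.83 and 9.70 CPM in LGR5-negative. Both LGR5-high libraries were above both LGR5-negative libraries. The means were 17.2 ± 2.24 and 8.76 ± 1.32 CPM (SD, n = 2 pigs), a 1.96-fold difference with a log2 fold change of 0.97 (standard error, SE, 0.176, adjusted p = 0.00731 by edgeR). The difference was larger in pig 88R, where the log2 ratio of the 2 libraries was 1.26 with a 95% counting interval of 1.04 to 1.49, than in pig 95R, where it was 0.69 with an interval of 0.48 to 0.90. These exact intervals cover counting error only and did not overlap, and a test between pigs cannot be made with 1 library per population and pig. Without the LGR5-high library of pig 88R the log2 fold change was 0.82 and the call was just lost (adjusted p = 0.0502 by edgeR). Of 8 melanocyte markers 5 were lower in LGR5-high and 0 higher, and with the pig as a replicate block 6 were lower and 1, MITF, was higher (log2 fold changes 0.23 and 0.37 in pigs 88R and 95R). DCT had 25.5 and 24.0 CPM in LGR5-high, against 21.3 and 77.8 in LGR5-negative. The summed level of the 8 markers was 64.2 to 64.5 CPM in LGR5-high, against 86.8 to 264 in LGR5-negative, and the part of melanocytes in the BCL2 difference was not tested.

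MCL1, a short-lived anti-apoptotic protein that must be made continuously, had the largest absolute log2 fold change of the 9 genes with TMM scaling, whereas BCL2 ranked above it with upper quartile scaling (1.06 against -0.95) and with library size only (1.19 against -0.83). Its level was 835 and 922 CPM in LGR5-high of pigs 88R and 95R, against 1730 and 1904 in LGR5-negative. Every LGR5-negative library exceeded every LGR5-high library by a wide margin, and the pigs gave nearly the same ratio. The log2 fold change was -1.05 (SE 0.100, adjusted p = 7.39e-04 by edgeR), that is 2.07-fold lower in LGR5-high, with -1.05 in each pig. MCL1 is also transcribed rapidly under stress, as immediate-early genes are, so the levels of those genes are set beside it. Of 10 immediate-early genes 4 were lower in LGR5-high and 1, IER3, was higher, and with the replicate block 8 were lower and 1 higher. Of all tested genes 22% were lower and 22.7% higher, and with the block 27.2% and 28.5%. Their summed level was 15380 to 19730 CPM in LGR5-high, against 21120 to 27050 in LGR5-negative. The part of dissociation in the MCL1 difference was not tested.

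BCL2L1, which encodes BCL-XL, was lower in LGR5-high as well. It had 52.7 and 60.5 CPM in LGR5-high of pigs 88R and 95R, against 102 and 87.2 in LGR5-negative. The populations did not overlap, with means of 56.6 ± 5.52 and 94.8 ± 10.8 CPM (SD, n = 2) and a log2 fold change of -0.74 (SE 0.118, adjusted p = 0.00452 by edgeR). As for BCL2, the difference was larger in pig 88R, with a log2 ratio of -0.96 (95% counting interval -1.04 to -0.87), than in pig 95R, with -0.53 (-0.61 to -0.44).

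Of the effectors, BAX was higher and BAK1 did not pass the test. BAX, which resides in the cytosol until it is activated, had 18.3 and 21.9 CPM in LGR5-high of pigs 88R and 95R against 13.3 and 13.6 CPM in LGR5-negative. Its populations did not overlap. The log2 fold change was 0.58 (SE 0.140, adjusted p = 0.0201 by edgeR), or 1.49-fold, and 0.46 and 0.68 in pigs 88R and 95R. The call was lost without the LGR5-high library of pig 95R (0.45, adjusted p = 0.122 by edgeR) and without the LGR5-negative library of pig 88R (0.56, adjusted p = 0.0575). BAK1, which sits in the mitochondrial membrane, had 15.1 and 15.0 CPM in LGR5-high, against 16.0 and 17.6 in LGR5-negative. The levels were close, with a log2 fold change of -0.16 and a 95% interval of -0.47 to 0.15 (adjusted p = 0.338 by edgeR), and the sign turned to 0.06 when libraries were scaled by their size alone. The ratio of BAX to BAK1 counts was 1.21 and 1.46 in LGR5-high and 0.829 and 0.774 in LGR5-negative of pigs 88R and 95R, so that it was higher in LGR5-high in both pigs.

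**Figure D2:**
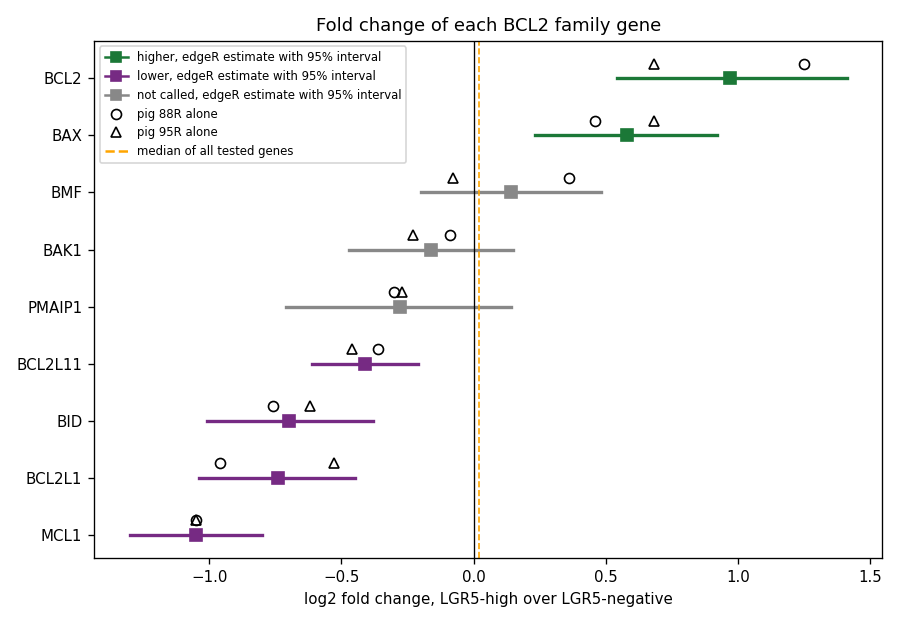
Log2 fold change of LGR5-high over LGR5-negative for the 9 BCL2 family genes, as squares with 95% intervals from edgeR and as open symbols for each pig alone, coloured by whether the gene was called higher, lower or not called. BCL2 (0.97) and BAX (0.58) lie to the right of 0, MCL1 (-1.05), BCL2L1 (-0.74), BID (-0.70) and BCL2L11 (-0.41) to the left, and only BMF has its pigs on opposite sides.

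Among the BH3-only genes, BID and BCL2L11 were lower in LGR5-high. BID is cut by caspase-8 and so carries death receptor signals to the mitochondria. It had 17.6 and 16.6 CPM in LGR5-high of pigs 88R and 95R, against 29.8 and 25.6 in LGR5-negative, with a log2 fold change of -0.70 (SE 0.127, adjusted p = 0.00749 by edgeR). BCL2L11, which encodes BIM, a broad ligand of the anti-apoptotic members, had 78.5 and 79.1 CPM in LGR5-high, against 101 and 109 in LGR5-negative. Neither gene overlapped between the populations, and in LGR5-high the 2 pigs had nearly the same level of each. The log2 fold change of BCL2L11 was the smallest in size of the 6 called members, at -0.41 (SE 0.0805, adjusted p = 0.00991 by edgeR). Without the LGR5-high library of pig 95R, BID gave an adjusted p of 0.0581 and BCL2L11 one of 0.0515 by edgeR, and without the LGR5-negative library of pig 95R BCL2L11 gave 0.0541. With library size only, BCL2L11 was not called either (log2 fold change -0.18, adjusted p = 0.121 by edgeR).

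PMAIP1 and BMF did not pass the test. PMAIP1 encodes NOXA, a stress-induced ligand that acts on MCL1, and it had 43.3 and 34.1 CPM in LGR5-high, against 53.3 and 41.1 in LGR5-negative of pigs 88R and 95R. The pigs differed about as much as the populations did and the 4 values overlapped, but within each pig LGR5-high was below LGR5-negative, with log2 fold changes of -0.30 and -0.27. In edgeR the adjusted p was 0.230, and 0.0276 once the pig entered as a replicate block, while DESeq2 with that block gave 0.142. With the block edgeR called 55.7% of all tested genes, 28.5% as higher and 27.2% as lower, beside 2 higher and 5 lower members. BMF, a BH3-only protein held on the actin cytoskeleton and released when cells detach, had 29.5 and 26.5 CPM in LGR5-high, against 23.0 and 28.0 in LGR5-negative. Its log2 fold change was 0.14, with a 95% interval of -0.20 to 0.48 (adjusted p = 0.458 by edgeR), and its pigs lay on opposite sides of 0.

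A ratio of 2 genes within a library does not depend on the scaling between libraries, nor on gene length once its change is taken. The ratio of each anti-apoptotic member to each effector and BH3-only member was therefore compared within each pig, which gave 18 ratios. They share genes and libraries, and the change of each restates the difference between the fold changes of its 2 genes. MCL1 had the lowest and BCL2 the highest log2 fold change of the members, so the directions of their ratios follow largely from the values above. The ratios are given as values without a test. Even an exact permutation of 2 against 2 libraries that ignores the pigs cannot go below a 2-sided p of 0.333. All 6 ratios with MCL1 as the numerator were lower in LGR5-high in both pigs with 95% counting intervals that left out 0, with mean changes between -1.62 on the log2 scale against BAX and -0.36 against BID. Ratios with BCL2 went the other way. Against the 4 BH3-only genes and BAK1 they were higher in LGR5-high in both pigs, with mean changes between 0.83 for BMF and 1.67 for BID. Against BAX the BCL2 ratio was 1.03 and 0.713 in LGR5-high and 0.588 and 0.711 in LGR5-negative, a change of 0.80 on the log2 scale in pig 88R and of 0.00 in pig 95R (95% counting interval -0.27 to 0.28).

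BCL2L1 followed MCL1 in part. Its ratio to BAX was 2.88 and 2.77 in LGR5-high and 7.70 and 6.40 in LGR5-negative of pigs 88R and 95R, the largest mean change of its 6 ratios at -1.31. Its ratio to BID changed by -0.20 and 0.10 in the 2 pigs, and its ratio to BCL2L11 by -0.60 and -0.07, so neither was below 0 beyond counting error in both. The ratio of BCL2 to MCL1 counts changed most of all those computed, by 2.31 on the log2 scale in pig 88R (95% counting interval 2.09 to 2.53) and by 1.73 in pig 95R (1.52 to 1.94). The ratio of BCL2 to BCL2L1 changed by 2.22 and 1.21. The ratio of BCL2L1 to MCL1 changed less, by 0.09 in pig 88R and 0.52 in pig 95R. Of the 3 anti-apoptotic genes, BCL2 thus made up a larger share of the counts in LGR5-high than in LGR5-negative of both pigs. That share stayed small, and MCL1 held most of these counts in every library. The ratio of BCL2 to MCL1 counts, not per length, was 0.0225 and 0.0169 in LGR5-high and 0.00452 and 0.00509 in LGR5-negative.

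**Figure D3:**
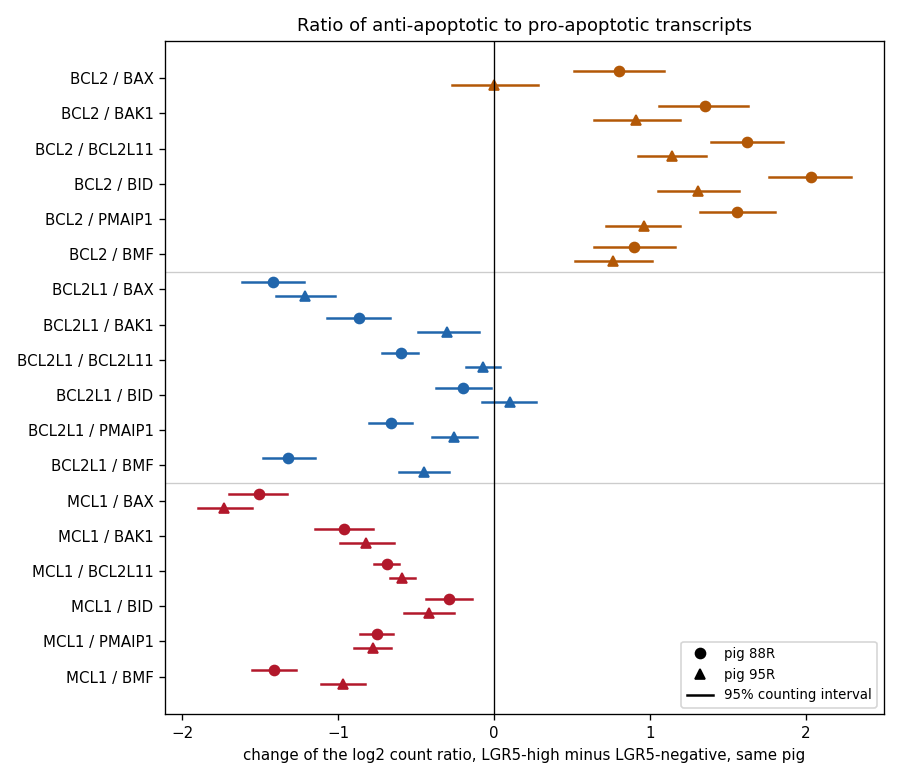
Change of the log2 ratio of counts between each anti-apoptotic gene and each pro-apoptotic gene, LGR5-high minus LGR5-negative within a pig, with circles for pig 88R, triangles for pig 95R and lines for 95% counting intervals. Ratios with MCL1 lie left of 0 in all 6 cases, and those with BCL2 lie right of 0 except for BCL2 to BAX in pig 95R at 0.00.

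Beyond the 10 genes, 12 of 13 other BCL2-related genes had a row, all but BIK, and 10 were tested. HRK was higher, and BCL2A1, BBC3, BCL2L13 and BAD were lower. That is 1 higher and 4 lower of 10, beside 22.7% and 22% of all tested genes. HRK and BCL2A1 passed the filter on low counts only through the population in which each is high, and of the 8 that reached 10 counts in each library 0 were higher and 3 lower, with a median log2 fold change of -0.24. BBC3, which encodes PUMA, a stress-induced BH3-only protein, had 31.5 and 34.5 CPM in LGR5-high, against 65.7 and 52.1 in LGR5-negative of pigs 88R and 95R (log2 fold change -0.84, SE 0.138, adjusted p = 0.00516 by edgeR). BCL2L13, a mitochondrial protein with a role in mitophagy, had a log2 fold change of -0.54 (adjusted p = 0.00274 by edgeR). BAD, a BH3-only protein silenced by survival kinases, had one of -0.52 (adjusted p = 0.0424 by edgeR), and its call was lost without any 1 of 3 libraries, the LGR5-high and LGR5-negative ones of pig 88R and the LGR5-negative one of pig 95R (highest adjusted p 0.168). It was not called either with upper quartile scaling (adjusted p = 0.0835 by edgeR), library size only (0.172) or at least 10 counts in every library (0.0507). Of the not called genes, BOK, an effector-like member, had a log2 fold change of 0.44 with an adjusted p of 0.0682 without and 0.00242 with the replicate block in edgeR. BCL2L12, BCL2L15, BNIP3 and BNIP3L had log2 fold changes between -0.28 and -0.03, and library size only turned those of BCL2L12, BNIP3 and BNIP3L above 0.

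HRK and BCL2A1 were near the floor in 1 population. HRK, a BH3-only gene best known from neurons, had 20 and 30 counts in LGR5-high of pigs 88R and 95R, and 0 and 1 in LGR5-negative. Over both pigs that is a ratio of 43.6 with a 95% counting interval of 7.47 to 1754. FBXW8 overlaps HRK in the RefSeq annotation of Sscrofa11.1, and without a known strand setting its reads cannot be told from those of HRK. BCL2A1, an NF-kB-induced anti-apoptotic gene of leukocytes, had 2 and 6 counts in LGR5-high and 53 and 101 in LGR5-negative, a ratio of 22.1 in favour of LGR5-negative (95% counting interval 10.9 to 52.1). Langerhans cell and other leukocyte markers are set beside it. The summed level of the 9 with a row was 6.51 to 8.64 CPM in LGR5-high, against 91.0 to 133 in LGR5-negative. CD74, with most of that sum, had 250 and 188 counts in LGR5-high and 2333 and 3538 in LGR5-negative. Of the 9, 6 were tested and were lower in LGR5-high, beside 22% of all tested genes. Among the 6, 5 had at most 11 counts in any LGR5-high library, so that they passed the filter through LGR5-negative. The T cell markers CD3E and CD2 had at most 3 counts in every library, and LCK, also of T cells, went the other way with 10 and 4 counts in LGR5-high and 0 and 1 in LGR5-negative. The part of leukocytes in the BCL2A1 difference was not tested. BCL2L10 and BCL2L14 had at most 5 counts in any library and were not tested.

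Genes that act after the mitochondrial step had no common direction. Of 16 tested apoptosome and caspase genes 3 were higher and 2 lower, beside 22.7% and 22% of all tested genes. The median log2 fold change of the list was 0.14. DIABLO and HTRA2, mitochondrial proteins that relieve caspases of their inhibitors, were higher with log2 fold changes of 0.59 and 0.58. CYCS, which encodes cytochrome c, was lower with -1.01, and so was BIRC6, a very large caspase inhibitor, with -0.56. CYCS lost its call without the LGR5-high library of pig 95R (highest adjusted p 0.111 by edgeR), and HTRA2 without that of either pig (highest 0.0773). APAF1 and BIRC3, chosen after their values were seen, were called only with the replicate block. APAF1, the scaffold of the apoptosome, had log2 fold changes of 1.16 and 1.14 in pigs 88R and 95R, and adjusted p-values of 0.120 without and 6.49e-08 with the block in edgeR. BIRC3, a ubiquitin ligase of the inhibitor of apoptosis family, had -0.73 and -1.34, with 0.0835 and 7.33e-07.

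Of 14 tested death receptor genes 8 were lower in LGR5-high and 3 higher, beside 22% and 22.7% of all tested genes, with a median log2 fold change of -0.69. The summed level of the differentiated keratinocyte markers was 6060 to 6649 CPM in LGR5-high, against 57480 to 66570 in LGR5-negative, and that of the leukocyte markers is given above. KRT1 and KRT10 made up most of the keratinocyte sum and were 11.8- and 10.8-fold lower. KRTDAP and DSC1 were 9.34- and 9.31-fold lower, SBSN and DSG1 2.91- and 2.20-fold, and IVL and LOR were not called. The part of either cell type in the death receptor counts was not tested. The lower genes included the initiator caspase gene CASP10 with -2.53, the ligand gene TNFSF10, which encodes TRAIL, with -2.40, and the receptor gene FAS, with 3.12 ± 0.604 CPM in LGR5-high against 13.5 ± 0.114 in LGR5-negative (SD, n = 2, log2 fold change -2.11, adjusted p = 6.89e-04 by edgeR). The 3 higher genes were TNF with 1.57, TNFRSF21 with 1.39 and MLKL, the executor of necroptosis, with 0.45. MLKL lost its call without any 1 of the 4 libraries, and TNF without the LGR5-negative library of pig 88R or the LGR5-high library of pig 95R (highest adjusted p 0.212 and 0.162 by edgeR). MLKL was not called by DESeq2 either, without or with the replicate block (adjusted p = 0.0511 and 0.110), or by edgeR over all genes with at least 1 count (0.0529).

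**Figure D4:**
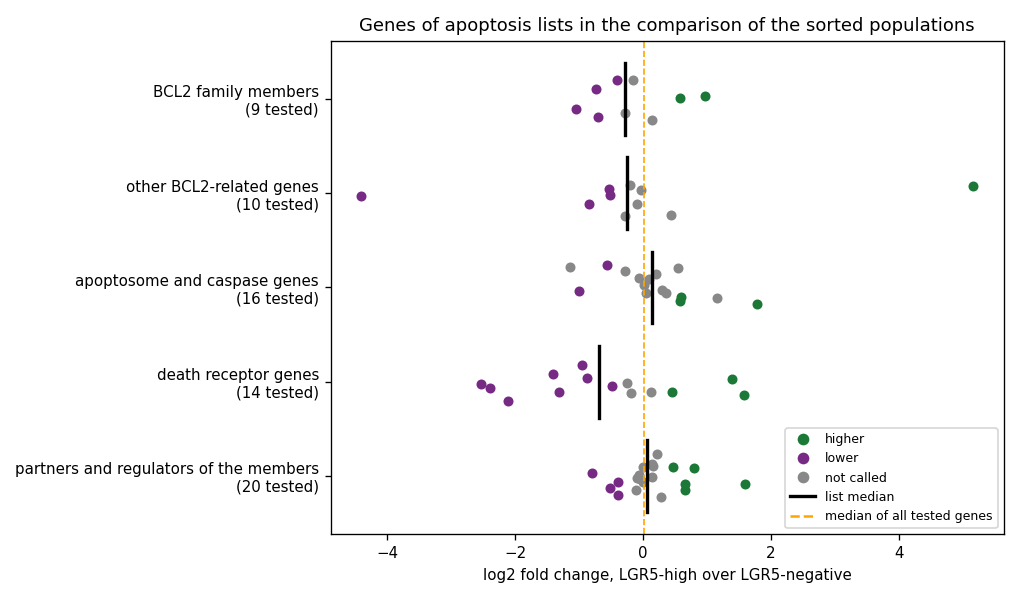
Log2 fold change of LGR5-high over LGR5-negative for each tested gene of 5 lists, 1 point per gene, coloured by call, with a black bar at each list's median and a dashed line at the median of all tested genes (0.02). The death receptor list has a median of -0.69; the outermost points, HRK and BCL2A1, are fitted from counts near 0 in 1 population and depend on the prior count.

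Partners and regulators of the members were called in 9 of 20 cases, 5 higher and 4 lower, with a median of 0.06. That is 45% called, beside 44.7% of all tested genes, 22.7% as higher and 22% as lower. BECN1, an autophagy protein bound by BCL2, was higher with a log2 fold change of 0.80 (adjusted p = 0.00219 by edgeR). The genes of the IP3 receptors, calcium channels of the endoplasmic reticulum to which BCL2 binds, were split, with ITPR1 and ITPR3 higher at 1.59 and 0.66 and ITPR2 lower at -0.80. ATF4, a transcription factor of the integrated stress response, was lower with -0.52. DYNLL2, the dynein light chain that tethers BMF, was lower with -0.40 (adjusted p = 0.0264 by edgeR) and lost its call without either library of pig 88R or the LGR5-high library of pig 95R (highest adjusted p 0.150). FBXW7 and BTRC, subunits of ubiquitin ligases for MCL1, were singled out after their values were seen. They had log2 fold changes of 0.65 and -0.39 (adjusted p = 0.00168 and 0.0258 by edgeR). HUWE1, MARCHF5 and USP9X of the same list, named beside them because they also act on MCL1, were not called. Their log2 fold changes were -0.10, -0.06 and -0.12 (adjusted p = 0.37, 0.65 and 0.29 by edgeR).

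The scaling between libraries moved all members alike. Over all tested genes the median change was 0.02 on the log2 scale with TMM, 0.11 with upper quartile scaling and 0.24 with library size only, and the members' values are relative to these medians. Library size only called 34.2% of all genes as higher and 14.6% as lower, so that 70.2% of its calls were higher against 50.9% with TMM, beside 2 higher and 3 lower members. BCL2 and BAX then had 1.19 and 0.80, and MCL1, BCL2L1 and BID had -0.83, -0.52 and -0.47, and these 5 remained called. The median over the 9 members was -0.06, and those of the apoptosome, death receptor and partner lists were 0.37, -0.47 and 0.29. The 6 called members kept their sign in all 15 alternatives. Every other called gene that was followed kept its sign too wherever it was fitted, so this was not particular to the members. DESeq2 and limma-voom each called 2 higher and 4 lower members. With Bonferroni adjustment of the edgeR p-values 0 members were called, while the unadjusted p-values were under 0.05 for 2 higher and 4 lower.

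**Figure D5:**
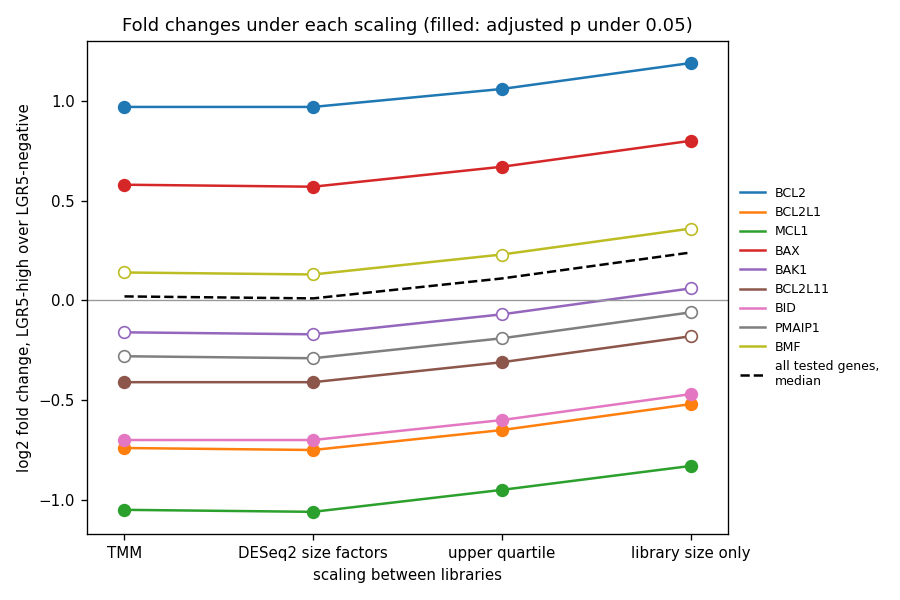
Log2 fold change of the 9 BCL2 family genes under 4 scalings between libraries, with filled points where the adjusted p-value was under 0.05 and a dashed line for the median of all tested genes. The lines run in parallel; BAK1 crosses 0 from -0.16 to 0.06, and BCL2L11 is no longer called with library size only.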

How the data were processed

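Poly(A) RNA of LGR5-high and LGR5-negative cells from 2 pigs was read from both ends. What the authors deposited are raw counts of reads for each gene symbol, not normalized. The submitters' processing notes name Trimmomatic 0.36, STAR 2.5.2b and featureCounts of Subread 1.5.2, and the genome build, annotation and strand setting are not given in the sources used here. Between 0.36% and 0.626% of the counts of a library fell on 1 row without a name, which was left out. All 29837 symbols matched RefSeq of Sscrofa11.1, used for names and overlaps only. RefSeq places other genes over BCL2, BCL2L1, BAK1, BCL2L11 and BID, and how reads there were assigned is not known. The same holds for other genes named here, among them HRK, BOK, BAD, APAF1, HTRA2, BIRC6, ITPR1 and ITPR2. CPM values are not per length, so levels of different apoptosis genes were not compared, and sums over marker genes weight long transcripts more.

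In R 4.3.3, edgeR 4.0.16 kept 15980 genes (filterByExpr, minimum count 10, minimum total 15) and scaled libraries by TMM. Its quasi-likelihood test, in a model with the population alone, gave p-values (2-sided) adjusted by Benjamini-Hochberg over all tested genes. Per-pig fold changes used a prior count of 2. Intervals called counting intervals were exact (Clopper-Pearson) for 2 libraries and normal for ratios of genes, and cover counting error only. Both populations came from each pig, and once population means were removed, libraries of the same pig correlated at 0.37. The members, lists and tests were chosen with earlier results of these data known. All members and other BCL2-related genes are named, with up to 3 increases and 3 decreases per pathway list (some genes and 1 list are not reported here), LGR5, and the 2 markers of highest mean CPM per list where values are given, and other markers named were chosen after their values were seen. Alternatives were other scalings and filters, the replicate block, DESeq2 1.42.0, limma-voom (limma 3.58.1), the t-test of the study's methods, Bonferroni adjustment and leaving out each library. The tests were tested on simulated data with known changes.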

Additional observations from a re-analysis of the deposited data

Results flagged for a closer look

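BMF and BNIP3 drew attention because the fold changes of the 2 pigs had opposite signs. BMF had a log2 fold change of 0.36 in pig 88R and of -0.08 in pig 95R, and the 95% counting intervals were 0.22 to 0.50 and -0.22 to 0.06. BNIP3, a mitochondrial receptor for mitophagy that is induced by hypoxia, had -0.20 in the former and 0.20 in the latter, and its counting intervals were -0.26 to -0.14 and of 0.13 to 0.27. Its levels were 129 and 109 CPM in LGR5-high and 148 and 94.6 CPM in LGR5-negative. The difference between the pigs was not tested, since each pig gave 1 library per population.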

How the results depend on the processing

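The counts of 2 higher and 4 lower BCL2 family genes were the same under 7 of the 11 alternatives that kept all libraries, and they were 2 and 3 with library size only. With the pig as a replicate block they were 2 and 5, where PMAIP1 was added. The block also added calls for BOK, APAF1, BIRC3 and FOXO3 among the other BCL2-related and pathway genes reported, and for 12 marker genes, and removed none of theirs. Student's t-test and Bonferroni adjustment each gave 0 higher and 0 lower members, with 544 and 502 genes called in all by the former and 194 and 130 by the latter, and unadjusted p-values under 0.05 for 2 higher and 4 lower members in both. Bonferroni adjustment used the same edgeR fit and unadjusted p-values as the counts of 2 and 4, so only the adjustment differed. For the t-test the cause was not tested. Leaving out 1 library in turn gave 1 to 2 higher and 2 to 4 lower members, from fewer samples, with the lone library of a population assumed to vary like the other population. Over all genes it gave 2292 to 3140 higher and 2164 to 2925 lower. Library size only gave 5473 higher and 2326 lower genes in all. Signs turned only for genes that were not called. With library size only, BAK1 had 0.06, BCL2L12 0.01, BNIP3L 0.13 and BNIP3 0.20. BNIP3 also had 0.07 with upper quartile scaling, 0.00 with a minimum of 10 counts in every library, the replicate block, limma-voom and the t-test, and between -0.31 and 0.33 when 1 library was left out. HRK and BCL2A1 could not be fitted with at least 10 counts in every library. At 2 pigs, a difference between pigs cannot be tested.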
